A study of Mus musculus with 14 samples.

Results

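The subject of this account is a set of cytokine receptor chains of lymphoid cells, 10 genes in all, of which 9 were measured. They are Il2ra, Il2rb, Il7r, Il4ra, Il21r, Il6ra, Il10ra, Il10rb and Il18r1, out of 22180 named genes on the array. The common gamma chain Il2rg, the tenth gene of the set, was not analysed here. The genes were chosen by function, with earlier results of these same arrays known. Where a gene has several probes the rule takes the probe selected on its highest mean over all arrays, but each of the 9 genes had 1 probe. Differences below are therefore descriptions, and their p-values are not independent support for the choice of genes.

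The cells were bone marrow cells sorted by flow cytometry as positive for Sca1 and negative for Kit, straight into lysis buffer. All mice were female NCR-NU, a nude strain that lacks a functional thymus, so the controls share that background too. There were 3 young and 5 old cancer-free mice, which carried a Matrigel control instead of a tumor. There were 3 young and 3 old tumor-bearing mice, whose primary tumors were size-matched. Each mouse gave 1 array. Ages in weeks and the kind of tumor were not stated in the labels.

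Cytokine receptors of this set pass signals through the cell membrane as pairs or trios of chains. Il2ra, Il2rb and Il2rg form the high-affinity interleukin-2 receptor, and the gamma chain is shared with the receptors for interleukin-4, interleukin-7 and interleukin-21, whose own chains are Il4ra, Il7r and Il21r. These receptors signal through JAK kinases and STAT transcription factors and are known for controlling survival and growth of T cells, natural killer cells, B cell progenitors and innate lymphoid cells. Il6ra works with the signalling chain Il6st, Il10ra and Il10rb together bind interleukin-10, and Il18r1 pairs with Il18rap and signals through Myd88 rather than through a JAK kinase.

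Of the chains with an unadjusted p under 0.05 in limma in any contrast below, 3 have sequence upstream of the gene in the RefSeq promoter table. It is shown here so that the regions can be compared. Each is given 5′ to 3′ on the gene's strand, build GRCm38.p6, up to the base before the gene's outermost annotated start. The window is 250 bases for Il2ra and Il6ra and 185 bases for Il7r. Capitals mark matches on either strand to a STAT core (TTCNNNGAA), a Runx core (TGTGGT) or an Ets core (GGAAGT).
Il2ra (chr2:11642542-11642791, plus strand): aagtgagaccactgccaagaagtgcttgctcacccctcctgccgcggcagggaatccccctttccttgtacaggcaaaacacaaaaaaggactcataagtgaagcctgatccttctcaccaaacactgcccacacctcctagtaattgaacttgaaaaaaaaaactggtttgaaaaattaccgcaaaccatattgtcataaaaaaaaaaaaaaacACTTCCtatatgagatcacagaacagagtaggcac
Il7r (chr15:9529942-9530126, minus strand): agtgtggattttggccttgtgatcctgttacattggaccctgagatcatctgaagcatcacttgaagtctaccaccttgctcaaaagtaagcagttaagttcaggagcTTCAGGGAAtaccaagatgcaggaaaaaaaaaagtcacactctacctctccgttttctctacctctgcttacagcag
Il6ra (chr3:89913197-89913446, minus strand): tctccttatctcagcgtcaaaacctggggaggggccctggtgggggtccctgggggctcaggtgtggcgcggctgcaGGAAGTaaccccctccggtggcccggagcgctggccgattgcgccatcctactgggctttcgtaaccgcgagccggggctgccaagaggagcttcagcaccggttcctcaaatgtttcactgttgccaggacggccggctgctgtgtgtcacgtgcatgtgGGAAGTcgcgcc
The Il2ra window held 1 Ets core, whose first base lies 35 bases before the gene, and no match to the other motifs. The Il6ra window held Ets cores at 173 and 12 bases before the gene. The Il7r window held 1 STAT core, at 77 bases before the gene. Over all 32851 windows in the table, an Ets core was present in 19.7% of 250-base windows, a Runx core in 14% and a STAT core in 7.02%. In 185-base windows a STAT core was present in 5.38%, an Ets core in 13.4% and a Runx core in 10.7%. A match describes these letters and does not show that a factor binds there. The table holds no window for Il10ra, Il2rb and Il10rb. Among the windows not shown, that of Il4ra held no match to any of the motifs, and those of Il18r1 held an Ets core.

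The values are log2 RMA levels, so a difference of 1 is a doubling, and levels of different genes are not compared because each rests on its own probe. A gene was tested if 3 or more arrays lay above 3.88, the table's median. That left 13805 genes, among them all 9 chains, whose lowest single value was 4.30 (Il21r). Array medians lay between 3.81 and 3.93. Young tumor-bearing replicate 1 and old tumor-bearing replicate 3 had the lowest mean correlation with the other arrays, 0.899 and 0.907, against up to 0.942. Ptprc, the pan-leukocyte phosphatase CD45, lay between 10.53 and 11.36 on all arrays. Its old tumor-bearing arrays, at 10.53 to 10.61, lay below every other array, the lowest of which was at 10.70. Kit transcript was above the floor everywhere, at 5.25 to 7.03, although the cells were sorted as negative for the Kit protein. The Sca1 gene, Ly6a, was not analysed here.

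The level of Il2ra and of Il10ra was lowest in old tumor-bearing mice, where all 3 arrays lay below all 11 others for both genes. This was not particular to them, as Ptprc, the dendritic cell marker Tlr9 and the monocyte marker Itgam showed the same separation. The share of all genes that did so was not computed. It can be no more than 3.04%, the share of genes lower without overlap in old tumor-bearing than in old cancer-free mice. Il7r and Il6ra had their lowest group mean in young tumor-bearing mice and their highest in old tumor-bearing mice. Il10rb, Il4ra and Il10ra were lower in young tumor-bearing than in young cancer-free mice without overlap, where 7.37% of all genes were. Il2rb, Il18r1 and Il21r had overlapping groups in nearly every comparison. In limma, with p-values adjusted by Benjamini and Hochberg over the 13805 genes, no chain passed 0.05 in any of 5 contrasts, and the background was equally 0% of genes in each. At an unadjusted p under 0.05, the tumor contrast gave 290 higher and 455 lower genes in young mice and 580 higher and 768 lower in old mice. The age contrast gave 343 higher and 714 lower without a tumor and 518 higher and 876 lower with one, and the difference of the tumor effects gave 355 and 255. The word lower or higher below describes means, with the interval of the difference beside it. A p that misses the threshold does not show that levels were equal.

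**Figure D1:**
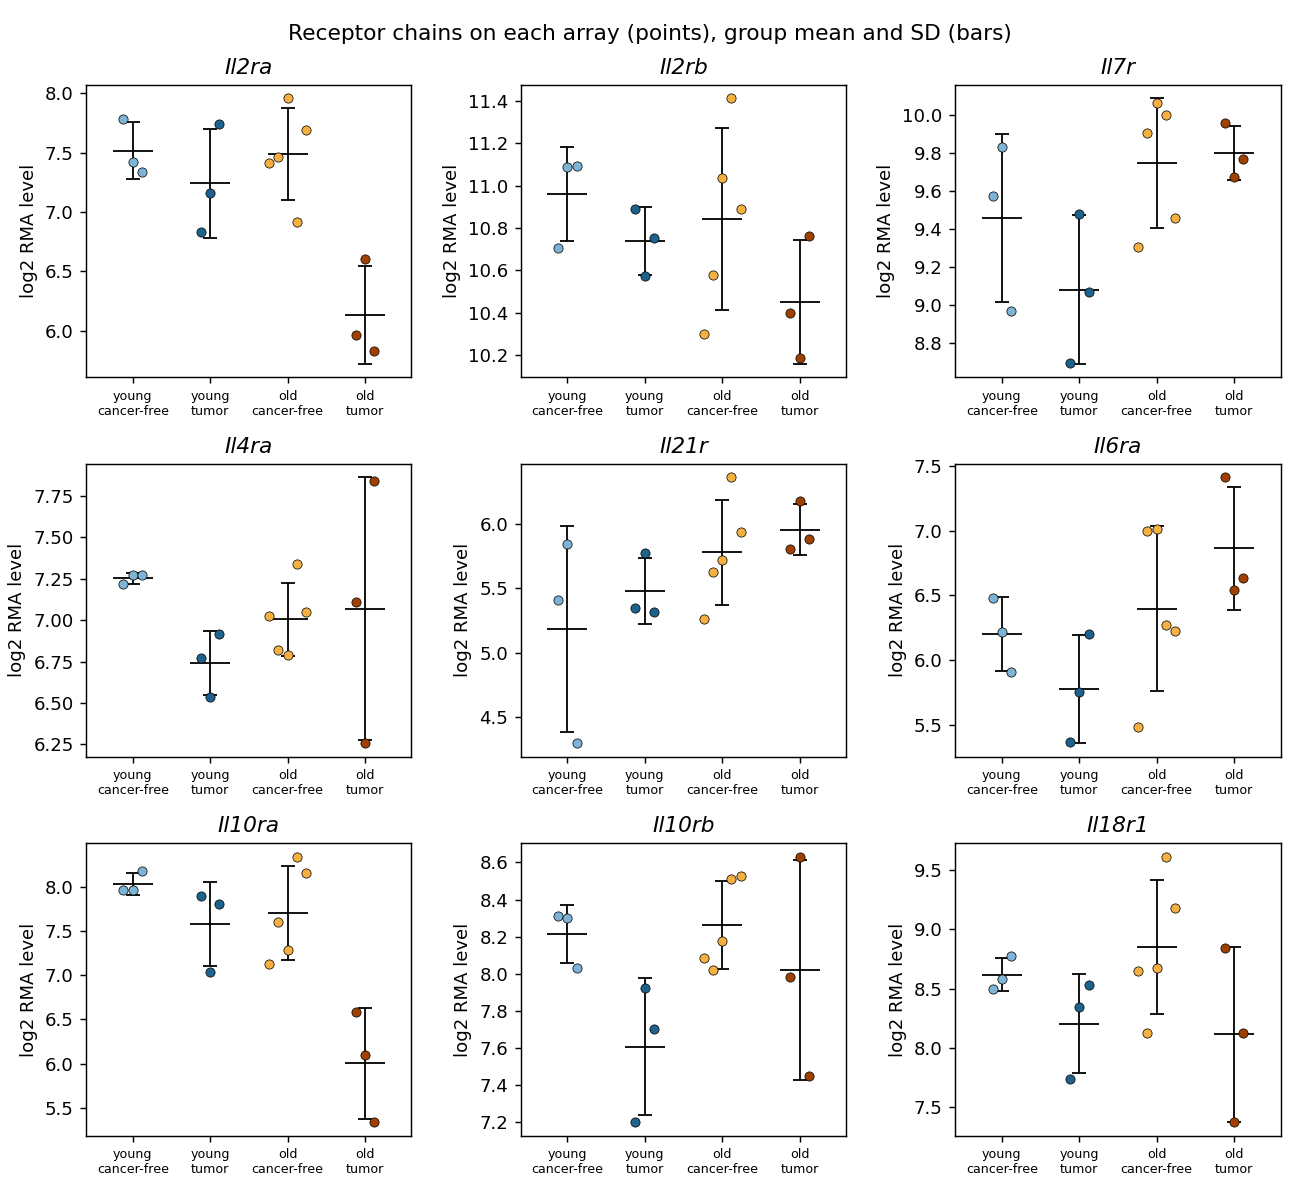
Log2 RMA level (vertical axis) of the 9 receptor chains on each of 14 arrays (points) in the 4 groups (horizontal axis), with the group mean and SD as bars. For Il2ra and Il10ra the 3 old tumor-bearing arrays, at up to 6.61 and 6.58, sit below every other array. The share of all genes with this pattern was not computed.

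Il2ra encodes the alpha chain of the interleukin-2 receptor (CD25), which raises its affinity and marks regulatory and activated T cells as well as group 2 innate lymphoid cells. Its level was 7.79, 7.42 and 7.34 in young cancer-free mice and 6.83, 7.16 and 7.74 in young tumor-bearing mice. It was 7.41, 7.46, 7.96, 6.92 and 7.69 in old cancer-free mice and 5.96, 6.61 and 5.83 in old tumor-bearing mice. The first 3 groups overlapped, with means of 7.51 ± 0.24 (SD, n = 3), 7.24 ± 0.46 (SD, n = 3) and 7.49 ± 0.39 (SD, n = 5). The old tumor-bearing mean, 6.13 ± 0.42 (SD, n = 3), stood apart from all of them by more than these spreads. Between old tumor-bearing and old cancer-free mice the difference was -1.35 ± 0.27 (SE), 2.56-fold lower (95% interval -1.93 to -0.78). Its adjusted p was 0.190 in limma. Because these are bulk samples, fewer cells of a type and less RNA per cell cannot be told apart.

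Il2rb is the beta chain of the interleukin-2 receptor, shared with the interleukin-15 receptor and abundant on natural killer cells and memory T cells. In young mice its mean was 10.96 ± 0.22 (SD, n = 3) without and 10.74 ± 0.16 (SD, n = 3) with a tumor. In old mice it was 10.84 ± 0.43 (SD, n = 5) without and 10.45 ± 0.29 (SD, n = 3) with a tumor. These means fall in the same order as those of Il2ra. However, every pair of groups overlapped, with all arrays between 10.18 and 11.41. Among the fitted contrasts the widest, tumor in old mice, was -0.39 ± 0.24 (SE), and no contrast of this chain had an unadjusted p under 0.05.

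Il7r encodes the alpha chain of the interleukin-7 receptor, found on lymphoid progenitors, naive and memory T cells and innate lymphoid cells. Its level was 9.58, 9.83 and 8.97 in young cancer-free mice and 8.69, 9.48 and 9.07 in young tumor-bearing mice. It was 9.31, 9.90, 10.07, 10.002 and 9.46 in old cancer-free mice and 9.96, 9.68 and 9.77 in old tumor-bearing mice. Of the 4 comparisons between groups, 1 had no overlap, that of old with young tumor-bearing mice. Old tumor-bearing mice exceeded young tumor-bearing mice by 0.72 ± 0.28 (SE), or 1.65-fold (95% interval 0.13 to 1.317), with adjusted p = 0.399 in limma. The means of old tumor-bearing, 9.80 ± 0.14 (SD, n = 3), and old cancer-free mice, 9.75 ± 0.34 (SD, n = 5), differed by less than their spread. Those of young cancer-free, 9.46 ± 0.44 (SD, n = 3), and young tumor-bearing mice, 9.08 ± 0.39 (SD, n = 3), did so too.

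Il4ra, the chain that binds interleukin-4 and is part of a receptor for interleukin-13, was at 7.22, 7.27 and 7.27 in young cancer-free mice. In young tumor-bearing mice it was at 6.77, 6.53 and 6.92. These groups did not overlap, and the difference was -0.51 ± 0.30 (SE) with a 95% interval of -1.16 to 0.14 and adjusted p = 0.887 in limma. In old cancer-free mice the values were 7.02, 6.82, 6.79, 7.34 and 7.05. The old tumor-bearing arrays, at 7.11, 6.26 and 7.84, spanned the whole range of the other groups, so no direction can be read for tumor in old mice.

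Il21r, the receptor chain for interleukin-21, had a mean of 5.18 ± 0.80 (SD, n = 3) without and 5.48 ± 0.26 (SD, n = 3) with a tumor in young mice. In old mice the corresponding means were 5.78 ± 0.41 (SD, n = 5) and 5.95 ± 0.20 (SD, n = 3). Neighbouring means in this order differed by less than the larger of their SDs. The age difference in cancer-free mice, 0.60 ± 0.31 (SE, 95% interval -0.08 to 1.27, adjusted p = 0.679 in limma), rested on young cancer-free replicate 3 at 4.30. Without that array it was 0.15. The tumor-bearing groups of the 2 ages did not overlap, but the nearest arrays, at 5.78 and 5.80, almost touched.

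Il6ra, the ligand-binding chain of the interleukin-6 receptor, was at 6.48, 6.22 and 5.91 in young cancer-free mice and at 5.37, 5.75 and 6.202 in young tumor-bearing mice. It was at 5.48, 6.99, 7.01, 6.27 and 6.23 in old cancer-free mice and at 7.41, 6.54 and 6.64 in old tumor-bearing mice. As for Il7r, old and young tumor-bearing mice did not overlap, and the old tumor-bearing arrays also lay above all 3 young cancer-free arrays. Old exceeded young by 1.09 ± 0.38 (SE) there, 2.13-fold (95% interval 0.28 to 1.90), with adjusted p = 0.365 in limma. Its partner Il6st had group means of 8.16 to 8.80, highest in old tumor-bearing mice, with overlapping ranges.

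Il10ra, the ligand-binding chain of the receptor for the anti-inflammatory cytokine interleukin-10, had the widest range over the 14 arrays of the 9 chains, 3.01. Its level was 7.96, 7.96 and 8.18 in young cancer-free mice and 7.90, 7.03 and 7.81 in young tumor-bearing mice. It was 7.12, 7.60, 7.28, 8.34 and 8.16 in old cancer-free mice and 6.58, 6.10 and 5.33 in old tumor-bearing mice. The highest old tumor-bearing array lay below the lowest array of each other group. Tumor-bearing old mice differed from cancer-free old mice by -1.70 ± 0.33 (SE), 3.24-fold lower (95% interval -2.40 to -0.99), with adjusted p = 0.190 in limma. Young tumor-bearing and young cancer-free mice also failed to overlap, with nearest arrays at 7.90 and 7.96 and a difference of -0.45 ± 0.37 (SE).

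Il10rb, the second chain of that receptor, also serves interleukin-22 and the lambda interferons. It was lower with tumor in young mice, as was Il10ra, but did not share the separation of old tumor-bearing mice. The level of Il10rb was 8.31, 8.30 and 8.03 in young cancer-free mice and 7.20, 7.92 and 7.70 in young tumor-bearing mice, without overlap. The difference was -0.61 ± 0.28 (SE), 1.53-fold lower (95% interval -1.21 to -0.0057), with adjusted p = 0.886 in limma. It was -0.40 without young tumor-bearing replicate 1. In old mice the tumor-bearing arrays, at 7.98, 8.63 and 7.45, surrounded the cancer-free range of 8.02 to 8.53.

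Il18r1, the binding chain of the interleukin-18 receptor, is known from natural killer cells and type 1 lymphocytes. In young mice its mean was 8.62 ± 0.14 (SD, n = 3) without and 8.20 ± 0.42 (SD, n = 3) with a tumor. In old mice these means were 8.85 ± 0.57 (SD, n = 5) and 8.11 ± 0.74 (SD, n = 3). Both tumor-bearing means were lower than both cancer-free means, by -0.42 ± 0.39 (SE) in young and -0.74 ± 0.35 (SE) in old mice. Neither had an unadjusted p under 0.05, and the groups overlapped. Its partner Il18rap had the lowest p of the other receptor chains, with a tumor difference in old mice of -1.003 ± 0.31 (SE, adjusted p = 0.360 in limma) and group means of 7.30 and 6.30.

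**Figure D2:**
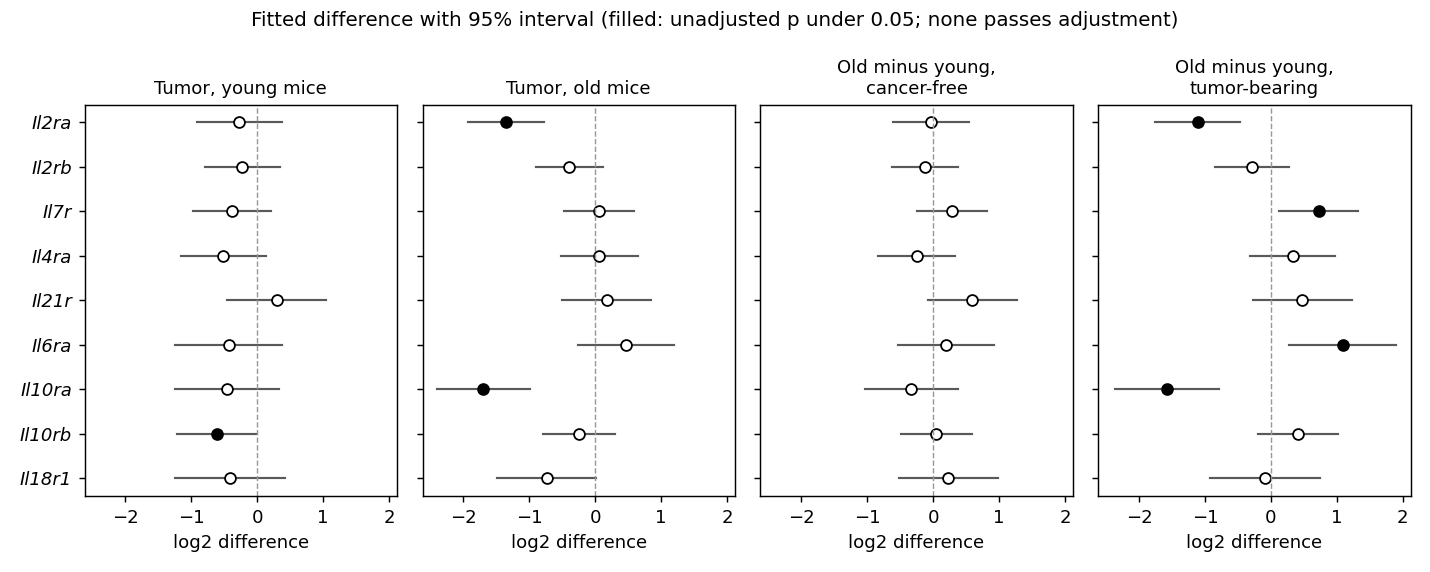
Fitted log2 difference (horizontal axis) with its 95% interval for each of the 9 chains (vertical axis) in 4 contrasts, filled where the unadjusted p is under 0.05. Il2ra and Il10ra lie between -1.70 and -1.11 in both panels that include old tumor-bearing mice.

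Taken by contrast, the comparison of tumor-bearing with cancer-free young mice gave 8 of 9 chains below 0, with a median of -0.42 against -0.02 over all genes tested. Without young tumor-bearing replicate 1, the least correlated array, 8 were still below 0 and the median was -0.23. With all arrays, 10 of 11 T cell and 7 of 8 natural killer cell markers were below 0 too, with medians of -0.95 and -0.59. Of group 2 innate lymphoid, B cell, plasmacytoid dendritic, monocyte and neutrophil markers 3 of 6, 3 of 8, 3 of 9, 5 of 8 and 4 of 9 were. Over all genes it was 7287 of 13805. At unadjusted p under 0.05, 1 chain was lower (Il10rb) and 0 were higher, where 3.3% and 2.1% of all genes were. Groups did not overlap for 3 chains in the lower direction and 0 in the higher, where 7.37% and 5.56% of all genes did not. In old mice 5 of 9 chains were below 0, with a median of -0.24 against 0.01. There, 2 chains had an unadjusted p under 0.05, both lower, and the same 2, Il2ra and Il10ra, did not overlap. The background was 5.56% lower and 4.2% higher for the p, and 3.04% lower and 3.11% higher for no overlap.

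Between old and young cancer-free mice 5 chains were above 0 and 4 below, with a median of 0.05 against -0.04. The sign of this median is not settled. It was -0.02 after median centring of each array, when Il10rb changed sign, -0.04 without young cancer-free replicate 3 and -0.02 without old cancer-free replicate 5, each with 4 chains above 0 and 5 below. With cyclic loess 6 were above and 3 below, with a median of 0.19. No chain had an unadjusted p under 0.05 and none failed to overlap, where 5.17% of genes were lower and 2.48% higher by the p and 4.4% and 2.9% by overlap. In tumor-bearing mice 5 chains were again above 0 and 4 below, with a median of 0.33 against 0.0044. That median rested on old tumor-bearing replicate 3: without it 4 chains were above 0 and 5 below, with a median of -0.06, and without both least correlated arrays the median was -0.04. Il2ra (-1.11 ± 0.30, SE, adjusted p = 0.227 in limma) and Il10ra (-1.58 ± 0.37, SE, adjusted p = 0.182 in limma) were lower, Il7r and Il6ra higher, each at unadjusted p under 0.05. Background shares were 6.35% lower and 3.75% higher. Without overlap were 2 chains in the lower and 3 in the higher direction, the third being Il21r, against 7.1% and 5.94% of all genes.

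The difference of the tumor effects between ages asks whether tumor-bearing old mice departed from their controls otherwise than young mice did. It was -1.08 ± 0.40 (SE) for Il2ra (95% interval -1.94 to -0.22) and -1.24 ± 0.49 (SE) for Il10ra (95% interval -2.30 to -0.19), each with adjusted p = 0.976 in limma. These 2 chains alone had an unadjusted p under 0.05, both in the lower direction, where 1.85% of genes were lower and 2.57% higher. For Il10ra the value was -0.75 without young tumor-bearing replicate 1 and old tumor-bearing replicate 3, the least correlated arrays. The low old tumor-bearing values enter 3 of the 5 contrasts, so these are not separate results.

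Il2ra and Il10ra shared their lowest group and not their spread within groups. Over the 14 arrays their levels had a Pearson correlation of 0.70 (Spearman 0.45), and after each group's mean was removed it was -0.15. For Il7r and Il6ra the corresponding values were 0.77 (Spearman 0.82) and 0.66 within groups, and for Il7r and Il21r 0.68 (Spearman 0.60) and 0.69. These are descriptions over arrays that share groups and normalisation.

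**Figure D3:**
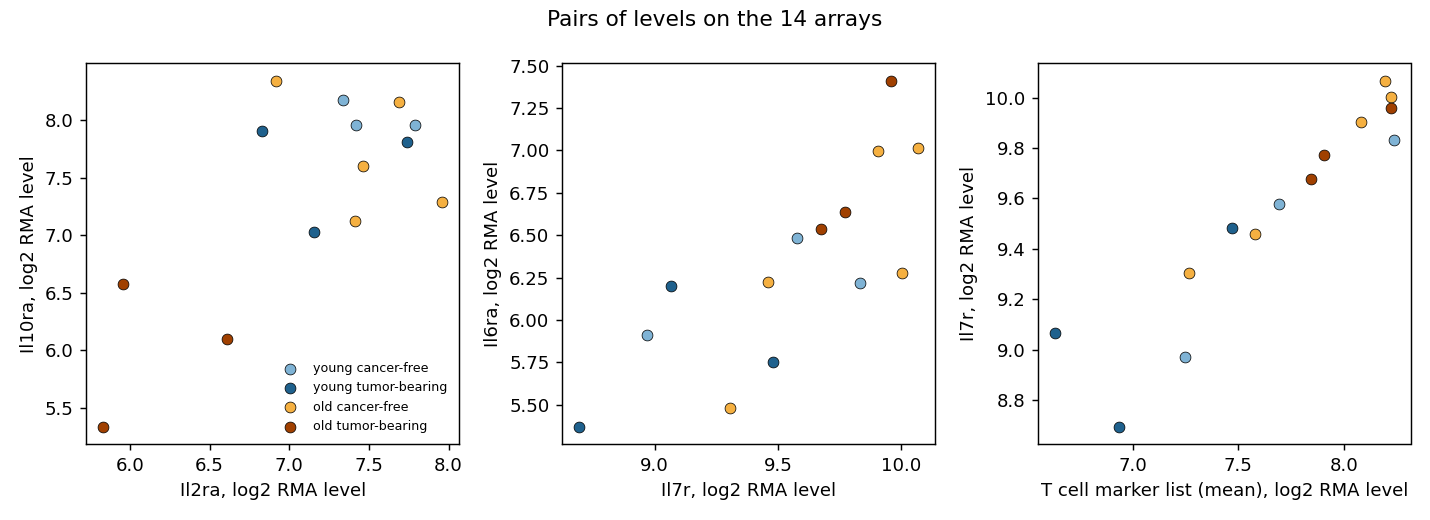
Log2 RMA levels on 14 arrays, coloured by group, of Il10ra against Il2ra, Il6ra against Il7r, and Il7r against the mean of 11 T cell markers. In the first panel the 3 old tumor-bearing arrays stand apart at the lower left, while in the last Il7r is higher on arrays with a higher marker mean (Pearson 0.93).

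The genes most like each chain were taken as the 3 with the highest Pearson correlation among the genes tested. For Il7r the nearest were the CD8 coreceptor chain Cd8b1 (0.93, within groups 0.93), Aqp9 (0.85) and Cd8a (0.84). Cd8b1 was also among the 3 nearest to Il6ra (0.84), after Dapl1 (0.87) and Bmp8a (0.85). Il21r was nearest to the T cell adaptor gene Lat (0.84), then Mapkapk5 and Golgb1. For Il2ra the nearest was H2-Oa (0.92, within groups 0.73), a chain of an MHC class II accessory molecule, then Ctla2b and Rbmxl1. For Il10ra these were Lrrfip1 (0.91, within groups 0.71), Ikzf2 and Map3k3. Il2rb was nearest to Cenpt (0.95), Zyx and Sytl2, and Il10rb to Ap4e1 (0.96), Cpsf7 and Xlr4b. Il4ra was nearest to Vrk3 (0.87), Clstn1 and Pcyt2, and Il18r1 to Ipcef1 (0.91), Arhgdib and Zbtb44. The genes were picked as the highest of 13805 correlations over 14 arrays that share groups, so these values are a description.

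Marker lists of the cells that carry these receptors were set beside the chains. T cell markers (11 of 13 tested, none with a group mean under the floor) had a list mean of 6.63 to 7.47 in young tumor-bearing mice. The range was 7.25 to 8.23 in young cancer-free, 7.27 to 8.22 in old cancer-free and 7.84 to 8.22 in old tumor-bearing mice. Between the ages in tumor-bearing mice 9 of 11 were above 0, where 6970 of the 13805 genes tested were, and 6 had an unadjusted p under 0.05, all higher in old mice, against 3.75% of all genes. Il7r moved with this list over the arrays (Pearson 0.93, within groups 0.90), as did Il6ra (0.70, within groups 0.52) and Il21r (0.60, within groups 0.70). Il2ra (-0.25) and Il10ra (-0.22) did not. The part of T cell number in the Il7r, Il6ra and Il21r differences was not tested.

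Natural killer cell markers (8 of 9 tested, none under the floor) had a list mean of 7.53 to 8.18 in old tumor-bearing and 8.13 to 8.53 in old cancer-free mice, with 7 of 8 members below 0 for tumor, where 6717 of the 13805 genes were. The ranges were 8.47 to 8.88 in young cancer-free and 7.93 to 8.42 in young tumor-bearing mice. Il18r1 followed this list (Pearson 0.73, within groups 0.85), and so did Il2rb (0.68, within groups 0.50). For Il10ra the values were 0.69 and 0.17, and for Il2ra 0.56 and -0.11. Group 2 innate lymphoid cell markers were tested for 6 of 9 genes, without Il5, which was under the floor in every group. Their list mean lay between 5.26 and 5.48 in old tumor-bearing and between 5.28 and 5.69 in old cancer-free mice. It includes Arg1 and Il13, whose group means of 3.86 to 4.41 were near the floor. Foxp3, the factor of regulatory T cells, had means of 5.77 ± 0.80 (SD, n = 3) and 6.15 ± 0.22 (SD, n = 5) in these groups, which overlapped. Ptprc was lower in old tumor-bearing mice by -0.42 ± 0.17 (SE, adjusted p = 0.467 in limma). The part of these shifts in the Il2ra and Il10ra differences was not tested.

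B cell markers (8 of 9 tested, none under the floor) had ranges of 7.14 to 7.45 in old tumor-bearing and 6.86 to 7.64 in old cancer-free mice. Plasmacytoid dendritic cell markers (9 of 9) lay between 6.05 and 7.37 in old cancer-free, 6.38 and 6.79 in old tumor-bearing, 7.24 and 8.11 in young cancer-free and 7.52 and 8.07 in young tumor-bearing mice. Monocyte and macrophage markers (8 of 9) lay between 5.98 and 6.66 in old tumor-bearing, 6.12 and 7.11 in old cancer-free and 6.73 and 7.37 in young mice of both kinds. Neutrophil markers (9 of 9) overlapped in all groups. The dendritic marker Ccr9 had a mean under the floor in old tumor-bearing mice. The monocyte marker Adgre1 had means under the floor in old mice with and without a tumor, and passed the filter mainly on young arrays. All 9 dendritic and all 8 monocyte markers had differences below 0 for age both with and without a tumor, where 6835 and 7655 of the 13805 genes were below 0, and 0 of them passed in limma. At an unadjusted p under 0.05, 4 of 9 dendritic and 3 of 8 monocyte markers were lower in old than in young tumor-bearing mice (6.35% of all genes), and 5 and 4 in old than in young cancer-free ones (5.17%). The part of these lists in the differences of the receptor chains was not tested.

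**Figure D4:**
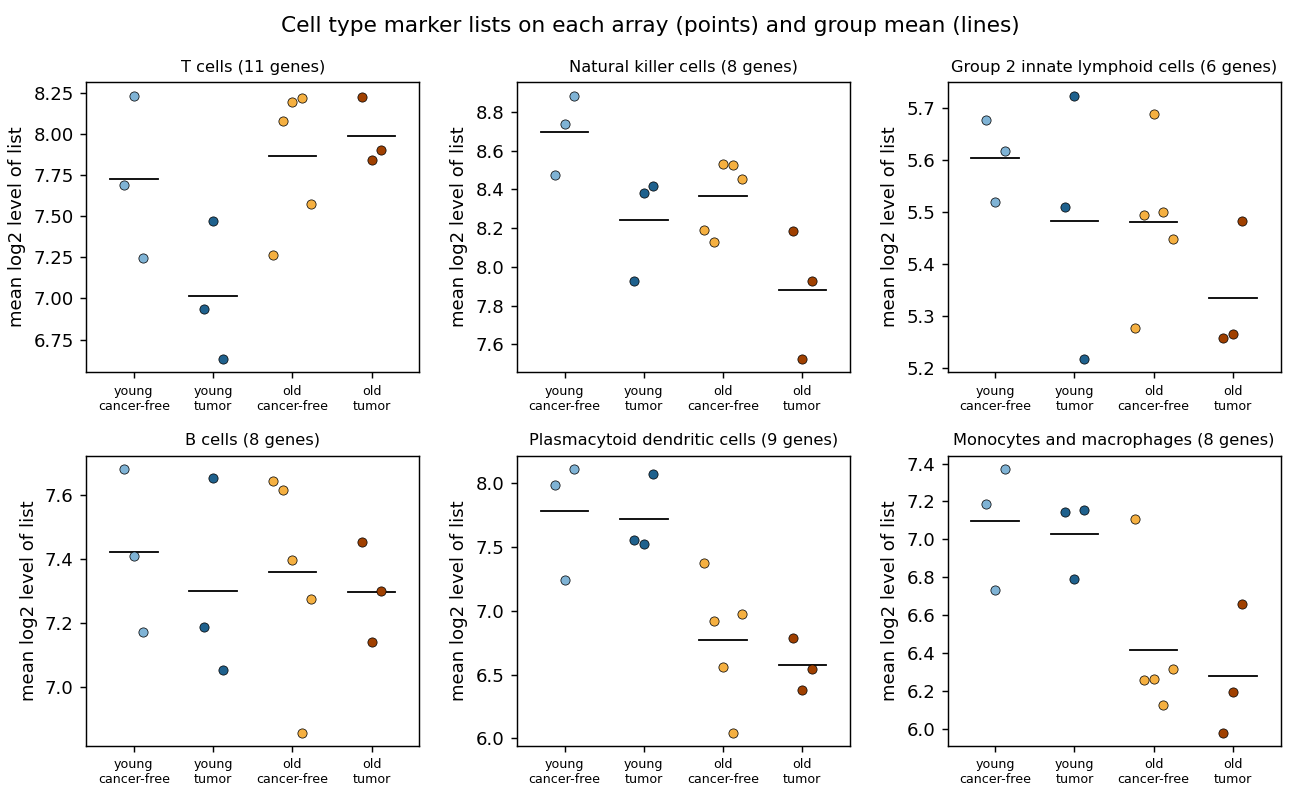
Mean log2 level (vertical axis) of the tested markers of 6 cell types on each array (points), with group means as lines. T cell markers have their lowest group mean in young tumor-bearing mice (arrays at 6.63 to 7.47). Natural killer cell markers have theirs in old tumor-bearing mice (arrays at 7.53 to 8.18). Each of these ranges overlaps that of other groups.

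Other genes of these pathways are given from lists set by function. Among 16 further receptor chains 14 were measured and 11 tested, and 0 passed in limma in any contrast. At unadjusted p under 0.05, 2 were lower with tumor in old mice, Il18rap and Il9r (-0.68 ± 0.23, SE), a partner of the gamma chain for interleukin-9. In young mice 1 was lower, Il12rb1, at -0.64 ± 0.26 (SE). Between the ages in cancer-free mice 1 was lower, Crlf2, the chain with which Il7r binds the cytokine TSLP, at -0.66 ± 0.24 (SE). In tumor-bearing mice 1 was lower, Il18rap.

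Of 13 ligands and inhibitors 5 were bright enough to test, and 8, among them Il2, Il4, Il6, Il7 and Il21, had every group mean under the floor. A single old cancer-free array had Il2 at 6.05. Il10 itself ranged from 5.69 to 8.36 in young tumor-bearing mice, against 5.21 to 6.23 in their cancer-free controls, and the groups differed by 1.46 ± 0.62 (SE, adjusted p = 0.886 in limma). In old tumor-bearing mice, where Il10ra was lowest, Il10 lay between 5.03 and 6.27. Among tumor-bearing mice the mean of Il15, which signals through Il2rb, was 4.53 ± 0.64 (SD, n = 3) in old ones and 3.63 ± 0.08 (SD, n = 3), under the floor, in young ones.

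Of 14 kinases, STAT factors and adaptors 11 were tested and 0 passed in limma. Stat6, which carries the interleukin-4 signal, had a tumor difference of -0.75 ± 0.26 in old mice (SE, adjusted p = 0.417 in limma), and the groups, at 6.50 to 6.83 and 6.998 to 7.86, did not overlap. Stat5b was at 0.70 ± 0.31 (SE) in that contrast. Stat4, of natural killer and type 1 T cells, was at -0.69 ± 0.30 (SE) with tumor in young mice, and Traf6, of the interleukin-18 pathway, at -0.63 ± 0.23 (SE) for age in tumor-bearing mice. All 10 feedback and target genes were tested, and none had an unadjusted p under 0.05 in any contrast. Cish, a target of STAT5 that restrains interleukin-2 signalling, averaged 7.87 ± 0.22 (SD, n = 3) in old mice with a tumor and 7.48 ± 0.80 (SD, n = 5) without. For the survival gene Bcl2 these means were 9.32 ± 0.17 (SD, n = 3) and 9.15 ± 0.77 (SD, n = 5).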

How the data were processed

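Log2 values were deposited by the authors for 41345 probes on 14 arrays, and the submitters' processing notes name RMA, oligo (version 1.32.0) and R (version 3.2.0). The scale is read from the values, 0.29 to 13.78, and the set of arrays normalised together was not stated. RMA makes array distributions alike, so a change of overall RNA output is not visible. Probes with 1 gene symbol (23521; 1814 had several, 16010 none) gave 22180 genes after taking the brightest probe, and symbols were updated through 23328 Entrez matches. Genes above the table median on at least 3 arrays entered a linear model in limma (3.58.1, R 4.3.3) with 4 group means, moderated variances (residual df 10, prior df 3.86), two-sided tests and Benjamini-Hochberg adjustment over 13805 genes per contrast. The number of arrays limits precision. The fit was also run on simulated independent normal values with added shifts. These had no effects shared by the genes of an array, so that run does not test for such effects.

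Members and lists were chosen with earlier results of these data known. Member differences were followed singly under the alternatives where the unadjusted p was under 0.05, or for the 2 smallest p of a contrast. Pathway genes were named by the smallest p. Other member differences were followed under the alternatives only by counts of signs and medians, and differences of other genes only by counts of genes passing. Foxp3, Cish, Bcl2, Il2, Il15, Il6st, Stat5b, Il12rb1, Ptprc and Kit values were added as context after being seen. Alternatives were other filters, cyclic loess, median centring, a robust variance trend, array weights, mean of probes, only the groups compared, a replicate block and leaving out each array. The labels call the arrays biological replicates.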

Additional observations from a re-analysis of the deposited data

How the results depend on the processing

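In each of 23 or 24 alternatives per contrast, 0 of the 9 chains passed in limma. The 12 chain differences that were followed singly kept their sign. The remaining chain differences were followed only by counts of signs and medians, and some changed sign. For tumor in young mice, 0 chains rather than 1 were above 0 without young cancer-free replicate 3. Partner and pathway genes were not followed singly. Adjusted p ranged from 0.0812 to 0.468 for Il10ra and from 0.132 to 0.352 for Il2ra with tumor in old mice, with differences of -1.98 to -1.33 and -1.59 to -1.20. For Il21r in cancer-free mice the age difference ran from 0.15 to 0.93, and for Il7r from 0.04 to 0.48, both lowest without young cancer-free replicate 3. Without the least correlated pair of arrays, an alternative added after seeing the data, Il10ra was at -1.36 with tumor in old mice and -1.08 for age in tumor-bearing mice. Over all genes, 0 passed in each contrast as reported, and under the alternatives at most 4 with tumor in old mice (without old tumor-bearing replicate 1) and 9 for age in tumor-bearing mice (median centring). Deviations of same-numbered arrays of different groups had correlations of -0.08 to 0.09, against -0.10 to 0.10 for other numbers. The numbers were therefore not taken as pairs. Among replicate 3 arrays every such correlation was above 0, from 0.02 to 0.09, and a factor shared by that number was not tested. With the replicate block, Il2ra was at -1.48 and Il10ra at -1.33 with tumor in old mice, and 7 rather than 4 chains were above 0 for the difference between ages. The block also moved the median of the chains to -0.12 for age in cancer-free mice and -0.07 for tumor in old mice. Replicates 4 and 5 occur only in old cancer-free mice, so the block takes those arrays out of that group's mean. The other numbers occur in every group, and contrasts without old cancer-free mice kept their values. The shifts with the block are therefore those of leaving out these arrays, and they do not adjust for a replicate factor.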
